A study of Mus musculus with 12 samples.

Results

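The subject here is a group of 9 genes of the cellular response to foreign or misplaced nucleic acid, followed across 4 mouse melanoma cell lines. They are the RNA helicases Ddx58, Ifih1 and Dhx58, the endosomal receptor Tlr3, the nucleic acid sensor Zbp1, the kinase Eif2ak2, the RNA-editing enzyme Adar, the ubiquitin ligase Trim25 and the adaptor Mavs. The genes were chosen by name, as 9 of the 55471 gene identifiers counted in each library, and all 9 passed the filter on low counts. Zbp1 passed it only through MeVa2.2.dOVA, with 56 to 428 reads per library there and at most 37 in any other library. That Zbp1 is higher in that line is therefore no separate support. The lines were MeVa2.1.dOVA, MeVa2.1, MeVa2.2.dOVA and MeVa2.2, each measured by RNA sequencing in 3 libraries. All 4 carry the genotype label WT, are described as untreated, and have a skin or subcutaneous tumour as their source. What dOVA stands for is not written in the labels, and each dOVA line is set here against the line whose name it extends. The title of the series calls MeVa2.1.dOVA immune-refractory. Neither the culture behind each replicate nor the clonality of a line is labelled. The p-values therefore reflect how far these libraries spread, which may be technical.

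RIG-I, the product of Ddx58, and MDA5, the product of Ifih1, are helicases of the cytosol that recognise double-stranded RNA and viral RNA ends, and both signal through MAVS on the mitochondrial membrane to switch on type I interferon. TLR3 recognises double-stranded RNA in endosomes through another adaptor. Interferon in turn raises the transcription of many of the sensors themselves, so that they are counted among the interferon-stimulated genes.

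Start-site sequences of the sensors were searched for the core of the interferon-stimulated response element, written GAAANNGAAA, or TTTCNNTTTC on the other strand. Ddx58, Ifih1 and Eif2ak2 differed between the dOVA lines, and so did Tlr3, Adar and Trim25, whose windows held no match. The 3 stretches below are printed because they carry the matches, which stand in capitals. They run 5′ to 3′ on the strand of the gene.
Ddx58: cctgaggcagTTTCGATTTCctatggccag
Ifih1: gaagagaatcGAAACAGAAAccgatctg
Eif2ak2: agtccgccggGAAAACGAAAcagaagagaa
The sequences come from RefSeq windows on GRCm38.p6 that run from 250 bases before to 50 bases after each transcript start. The Ddx58 stretch is chr4:40239804-40239833, the Ifih1 stretch chr2:62646206-62646233 and the Eif2ak2 stretch chr17:78882535-78882564, all on the minus strand. Counted from 1 at the first transcribed base, the match covered bases 3 to 12 in Ddx58, 33 to 42 in Ifih1 and 19 to 28 in Eif2ak2, so all 3 lay in transcribed exon sequence. Windows were present for 7 of the 9 genes, without Dhx58 and Zbp1. In the windows of Tlr3, Mavs, Adar and Trim25 these letters did not occur on either strand. The Tlr3 window was set on a first transcribed base of 45410380 and reached to 45410630. It did not cover the GENCODE end of this minus-strand gene at 45411080, which was not searched. Of all 32851 mouse windows, 3.44% held the motif, and among 27025 genes 3.99% did in at least 1 window. A match of letters is a description of the sequence and was not tested as a binding site.

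Gene counts per library ranged from 16181816 to 35627069. Replicate 2 of MeVa2.1.dOVA and replicate 2 of MeVa2.2 had been placed apart from their lines in an earlier analysis of these data, and results that change without them are given with both values. Of the melanocyte markers, Mitf, the lineage transcription factor, was at 8.84 to 24.1 CPM in the 12 libraries, while 0 to 5 of the 7 listed markers were at 0 in a library. Sox10, another defining factor, exceeded 0.31 CPM only in replicate 1 of MeVa2.2, at 1.12 CPM. That library also held Dct at 15.9 CPM and Tyrp1 at 12.3 CPM, both enzymes of pigment synthesis, whereas neither exceeded 2.3 CPM in any other library. Outside it most melanocyte markers were therefore low, in lines labelled as melanoma. Of 12 leukocyte markers, 5 to 10 were at 0 in a library, and those at 0 in every library included Cd3e, Siglech and Nkg7. Their summed level was 1.47 to 6.49 CPM in MeVa2.1.dOVA, 1.49 to 5.13 CPM in MeVa2.1, 2.03 to 5.23 CPM in MeVa2.2.dOVA and 2.78 to 5.03 CPM in MeVa2.2. These ranges overlapped between all lines, and Ptprc, which marks leukocytes in general, did not exceed 0.237 CPM.

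The RNA sensors were high in MeVa2.2.dOVA and low in MeVa2.1.dOVA, and for most of them the low level was shared by MeVa2.1. Between MeVa2.1.dOVA and MeVa2.1 none of the 9 had an edgeR adjusted p under 0.05, where 0.486% of all genes did. Their median log2 fold change there was -0.029. In the comparison of the dOVA lines, 8 of the 9 genes were lower in MeVa2.1.dOVA, by 2.85-fold for Adar to 73.4-fold for the sparsely counted Zbp1, and Mavs was the exception. Zbp1 passed the filter only through MeVa2.2.dOVA, so its direction here was not independent of the filter. Ddx58 came next to it, at 13.3-fold. Across all 13985 genes tested, 11.3% passed the threshold of an adjusted p of 0.05 in either direction and 4.81% were lower. The 8 genes also showed no overlap between the libraries of the dOVA lines, against 16.0% of all genes that were lower without overlap. The median log2 fold change of the 9 genes was -2.57, against 0.0052 over all genes. In bulk RNA, fewer cells that express a gene and less RNA per cell cannot be told apart. Levels are given as CPM, gene counts scaled to a common library total. Fold changes come from edgeR's quasi-likelihood test with Benjamini-Hochberg adjustment over all genes tested.

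Ddx58, which encodes RIG-I, lies on chromosome 4 from 40203773 to 40239828 on the minus strand (GRCm38). It was at 20.6, 23.3 and 10.4 CPM in replicates 1 to 3 of MeVa2.1.dOVA and at 15.01, 16.4 and 13.9 CPM in those of MeVa2.1. It was at 187, 184 and 375 CPM in MeVa2.2.dOVA and at 83.7, 62.4 and 18.9 CPM in MeVa2.2. All MeVa2.2.dOVA libraries lay above all others, and the lowest library of MeVa2.2 lay within the range of MeVa2.1.dOVA. Ddx58 was 13.3-fold lower in MeVa2.1.dOVA than in MeVa2.2.dOVA (log2 fold change -3.73, SE 0.52, edgeR adjusted p = 0.00104).

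Ifih1 encodes MDA5, which binds long double-stranded RNA, and lies on chromosome 2 from 62595798 to 62646255. Its level was 25.8, 11.9 and 3.97 CPM in MeVa2.1.dOVA and 12.4, 7.97 and 4.15 CPM in MeVa2.1. In MeVa2.2.dOVA it was at 104, 93.6 and 136 CPM, and in MeVa2.2 at 52.9, 26.2 and 7.11 CPM. The 3 libraries of MeVa2.2.dOVA stood close together, whereas those of MeVa2.2 spread 7.44-fold. Between the dOVA lines Ifih1 was 7.86-fold lower in MeVa2.1.dOVA (log2 fold change -2.97, SE 0.75, edgeR adjusted p = 0.0258). The call was lost without replicate 2 or 3 of MeVa2.1.dOVA (adjusted p 0.0755 and 0.0716) and without replicate 1 or 2 of MeVa2.2.dOVA (0.0600 and 0.0568). Without replicate 1 of MeVa2.1.dOVA the log2 fold change was -3.78.

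Dhx58 encodes LGP2, a helicase that lacks the signalling domain of its relatives and modulates them, on chromosome 11 from 100694884 to 100704271. It was at 9.21, 2.24 and 5.41 CPM in MeVa2.1.dOVA and at 16.2, 9.01 and 12.4 CPM in MeVa2.1. It was at 15.4, 12.4 and 76.2 CPM in MeVa2.2.dOVA and, in MeVa2.2, at 19.1, 4.74 and 8.90 CPM. Replicate 3 of MeVa2.2.dOVA was far above every other library, and its line otherwise overlapped with MeVa2.1. Dhx58 was 5.93-fold lower in MeVa2.1.dOVA than in MeVa2.2.dOVA (log2 fold change -2.57, SE 0.74, edgeR adjusted p = 0.0448). Without replicate 3 of MeVa2.2.dOVA the log2 fold change was -1.31 with an adjusted p of 0.140. The call was also lost without replicate 1, 2 or 3 of MeVa2.1.dOVA, replicate 1 of MeVa2.2.dOVA, any replicate of MeVa2.1 or replicate 3 of MeVa2.2, with adjusted p from 0.0516 to 0.129, and it held in 8 of the 19 alternatives. The antisense gene Dhx58os shares 141 of the 3272 exon bases of Dhx58, and whether the counting used strand is not given in the sources used here.

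Tlr3, the endosomal receptor for double-stranded RNA, lies on chromosome 8 from 45395665 to 45411080. It was at 3.89, 1.49 and 3.68 CPM in MeVa2.1.dOVA and at 4.10, 4.58 and 7.77 CPM in MeVa2.1. The MeVa2.2.dOVA libraries had 13.3, 12.9 and 29.96 CPM, and the MeVa2.2 libraries had 10.9, 4.32 and 6.58 CPM. MeVa2.2.dOVA was above the other lines without overlap, and MeVa2.1.dOVA lay just below MeVa2.1. Tlr3 was 5.99-fold lower in MeVa2.1.dOVA than in MeVa2.2.dOVA (log2 fold change -2.58, SE 0.48, edgeR adjusted p = 0.00579). An antisense gene, Gm45542, overlaps 381 of its 5207 exon bases.

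Zbp1, a sensor of left-handed nucleic acid that can start necroptosis, lies on chromosome 2 from 173206612 to 173218923. MeVa2.1.dOVA held 5 reads of it in all 3 libraries together, at 0.124, 0.115 and 0.0288 CPM, and MeVa2.1 held 7, at 0, 0.260 and 0.0561 CPM. There were 550 reads in MeVa2.2.dOVA, at 3.02, 3.52 and 12.7 CPM, and 51 in MeVa2.2, at 2.19, 0.421 and 0.228 CPM. The gene was thus close to absent from both MeVa2.1 lines at this depth, and in MeVa2.2 most reads came from replicate 1. Between the dOVA lines the log2 fold change was -6.20 (SE 1.17, edgeR adjusted p = 0.00620), the largest among the 9 genes and the one with the fewest reads behind it. Without replicate 3 of MeVa2.2.dOVA it was -5.27.

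Eif2ak2 encodes PKR, a kinase that halts translation when it binds double-stranded RNA, on chromosome 17 from 78852564 to 78882573. It was at 30.8, 26.2 and 27.3 CPM in MeVa2.1.dOVA and at 23.2, 27.3 and 34.1 CPM in MeVa2.1. The MeVa2.2.dOVA libraries had 104, 105 and 266 CPM, and those of MeVa2.2 had 82.9, 67.1 and 37.5 CPM. Every library of both MeVa2.2 lines lay above every library of the MeVa2.1 lines. Eif2ak2 was 5.44-fold lower in MeVa2.1.dOVA than in MeVa2.2.dOVA (log2 fold change -2.44, SE 0.37, edgeR adjusted p = 0.00183).

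Adar encodes the deaminase that converts adenosine to inosine in double-stranded RNA, on chromosome 3 from 89715022 to 89753446, and the gene counts do not separate its isoforms. It was at 56.1, 82.1 and 51.5 CPM in MeVa2.1.dOVA and at 42.7, 40.0 and 42.0 CPM in MeVa2.1. The MeVa2.2.dOVA libraries had 160, 170 and 226 CPM, and those of MeVa2.2 had 86.2, 105 and 49.1 CPM. The 3 MeVa2.1 libraries were the lowest of the 12, and MeVa2.1.dOVA overlapped with MeVa2.2. Adar was 2.85-fold lower in MeVa2.1.dOVA than in MeVa2.2.dOVA (log2 fold change -1.51, SE 0.28, edgeR adjusted p = 0.00551). Chrnb2, on the opposite strand, shares 1365 of its 8118 exon bases.

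Trim25 encodes a ubiquitin ligase known for its part in RIG-I activation and lies on chromosome 11 from 88999376 to 89020293. Its level was 42.5, 60.5 and 31.8 CPM in MeVa2.1.dOVA and 54.8, 54.3 and 39.9 CPM in MeVa2.1. In MeVa2.2.dOVA it reached 122, 118 and 196 CPM, and in MeVa2.2 96.8, 81.0 and 40.5 CPM. MeVa2.2.dOVA was highest without overlap, and the other 3 lines overlapped with one another. Trim25 was 3.13-fold lower in MeVa2.1.dOVA than in MeVa2.2.dOVA (log2 fold change -1.65, SE 0.35, edgeR adjusted p = 0.0111).

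Mavs, the mitochondrial adaptor on which RIG-I and MDA5 converge, lies on chromosome 2 from 131234063 to 131248025. It was at 87.0, 58.9 and 81.4 CPM in MeVa2.1.dOVA and at 72.5, 69.9 and 87.5 CPM in MeVa2.1. The MeVa2.2.dOVA libraries had 53.0, 47.5 and 69.6 CPM, and those of MeVa2.2 had 56.1, 57.1 and 74.6 CPM. Each dOVA line overlapped with the line it is named after, and all 12 libraries kept to a range that was narrow beside those of the sensors. Its log2 fold change between the dOVA lines was 0.45 (SE 0.19, edgeR adjusted p = 0.156), and the block by replicate number gave an adjusted p of 0.0482.

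**Figure D1:**
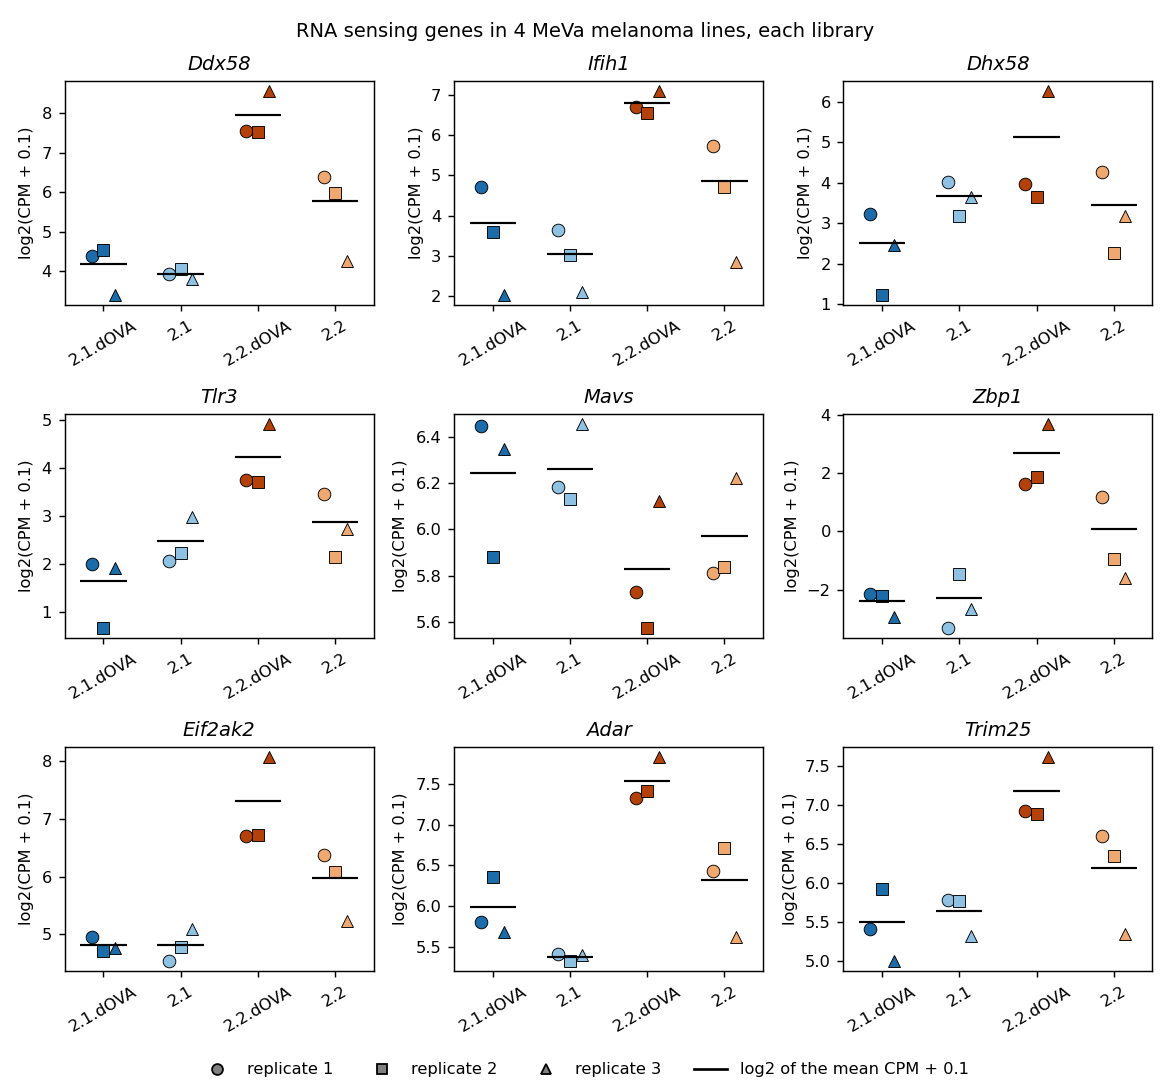
Level of each of the 9 genes in the 12 libraries, as log2(CPM + 0.1), with the lines MeVa2.1.dOVA, MeVa2.1, MeVa2.2.dOVA and MeVa2.2 shown by the numbers in their names on the horizontal axis and the replicate by symbol; bars mark the log2 of the mean CPM + 0.1 of 3 libraries, and each panel has its own vertical scale. MeVa2.2.dOVA is highest for every gene but Mavs, and its replicate 3 is the highest of its line in all 9 panels.

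With length taken into account, the make-up of the sensing genes differed between the dOVA lines. In MeVa2.1.dOVA the most abundant of the 9 per kilobase of exon was Mavs, at 22.6 ± 4.45 CPM per kilobase (SD, n = 3), followed by Trim25 at 7.81 ± 2.52, Adar at 7.79 ± 2.03 and Eif2ak2 at 5.49 ± 0.469. Ddx58 was at 2.57 ± 0.961, Dhx58 at 1.72 ± 1.07, Ifih1 at 1.70 ± 1.35, Tlr3 at 0.581 ± 0.255 and Zbp1 at 0.0252 ± 0.0148. In MeVa2.2.dOVA the order began with Ddx58 at 35.2 ± 15.5 CPM per kilobase and Eif2ak2 at 30.9 ± 18.3, followed by Trim25 at 25.3 ± 7.66, Adar at 22.9 ± 4.40 and Mavs at 16.9 ± 3.44. From Ddx58 down to Adar, neighbours in that order lay within 1 SD of each other. Ifih1 at 13.6 ± 2.69, Dhx58 at 10.6 ± 11.0, Tlr3 at 3.60 ± 1.87 and Zbp1 at 1.82 ± 1.55 closed it. Per kilobase, the mean level of Ddx58 was thus below that of Mavs in MeVa2.1.dOVA and above it in MeVa2.2.dOVA. Ddx58 was below Mavs in the lines without dOVA too, at 2.14 against 22.9 in MeVa2.1 and 7.80 against 18.7 in MeVa2.2. Mavs was the most abundant of the 9 in both of those lines, as it was in MeVa2.1.dOVA.

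The calls between the dOVA lines held best for Ddx58, Tlr3, Zbp1, Eif2ak2, Adar and Trim25, which passed the threshold in all 19 alternatives tried. DESeq2 called 8 of 9 as well, against 17.4% of all genes, and with the replicate number as a block 9 of 9 were called, against 22.0% of all genes under that fit. Without the 2 libraries placed apart, 6 of the 9 passed, Ifih1 (adjusted p = 0.0760) and Dhx58 (0.0866) being lost.

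In MeVa2.2.dOVA against MeVa2.2, Ddx58 was the 1 gene of the 9 that rose, by 4.40-fold (log2 fold change 2.14, SE 0.49, edgeR adjusted p = 0.0495), where 1.99% of all genes passed the threshold and 0.422% rose. The other values were 1.93 (SE 0.72, adjusted p = 0.206) for Ifih1, 1.62 (SE 0.71, 0.283) for Dhx58, 1.33 (SE 0.46, 0.173) for Tlr3 and 2.75 (SE 0.92, 0.160) for Zbp1. Those of the effectors and regulators were 1.29 (SE 0.36, 0.0955) for Eif2ak2, 1.18 (SE 0.28, 0.0548) for Adar and 0.96 (SE 0.34, 0.184) for Trim25. Mavs stood at -0.18 (SE 0.19, 0.676). At an unadjusted p of 0.05, 8 of the 9 were higher, against 6.70% of all genes, and 7 were higher without overlap of libraries, against 9.83%. DESeq2 called 4 (Ddx58, Adar, Eif2ak2 and Zbp1), against 6.96% of all genes. The Ddx58 call was lost when any 1 of the 12 libraries was left out (adjusted p 0.0562 to 0.118), with library size as the total count (0.0535) and with the pair of lines fitted alone (0.189). Without the 2 libraries placed apart it was lost too (0.0576), and Adar passed instead (log2 fold change 1.43, edgeR adjusted p = 0.0167). Of 6 fibroblast markers, Dcn, Pdgfra and Thy1 fell in the same comparison (log2 fold changes -2.49, -2.61 and -6.49). In MeVa2.1.dOVA against MeVa2.1, 1 of the 6 passed as lower, and their median log2 fold change was -1.70. The summed level of the 6 was 1501 to 4872 CPM in MeVa2.2.dOVA and 2743 to 5643 CPM in MeVa2.2, with Lum at 0 in 1 MeVa2.2.dOVA library. The 5 melanocyte markers tested had a median log2 fold change of -3.38, none passing edgeR's threshold and 3 lower with an unadjusted p under 0.05. The share of all genes lower at that level is not given here. The 7 listed markers summed to 9.07 to 16.6 CPM in MeVa2.2.dOVA and 10.5 to 58.3 CPM in MeVa2.2. The part of either marker list in the result was not tested.

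In MeVa2.1.dOVA against MeVa2.1 none of the 9 genes passed edgeR's threshold, none had an unadjusted p under 0.05, and DESeq2 called none. Of all genes, 0.486% passed edgeR's threshold, 11.2% had an unadjusted p under 0.05 and 2.82% were called by DESeq2. Log2 fold changes ran from -1.17 (SE 0.71, edgeR adjusted p = 0.590) for Dhx58 to 0.74 (SE 0.71, 0.761) for Ifih1. Ddx58 differed by 0.25 (SE 0.47, 0.893), Zbp1 by -0.34 (SE 1.37, 0.953), Trim25 by -0.16 (SE 0.34, 0.909), Mavs by -0.029 (SE 0.19, 0.977) and Eif2ak2 by -0.016 (SE 0.36, 0.993). Libraries did not overlap for Adar, higher in MeVa2.1.dOVA (log2 fold change 0.60, SE 0.28, 0.449), and for Tlr3, lower (-0.87, SE 0.46, 0.530), against 10.7% and 10.4% of all genes in those directions. Under the fit with a replicate block none of the 9 passed either, against 2.60% of all genes.

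Between MeVa2.1 and MeVa2.2, the lines without dOVA, none of the 9 passed edgeR's threshold, where 4.48% of all genes did. Ddx58 had a log2 fold change of -1.84 (SE 0.49, edgeR adjusted p = 0.0573) and Adar one of -0.93 (SE 0.28, 0.0890). Blocked by replicate number both passed, at 0.0471 for Ddx58 and 0.0488 for Adar, where 9.51% of all genes did. The remaining values were -1.79 (SE 0.72, 0.217) for Ifih1, -3.11 (SE 1.11, 0.160) for Zbp1, -1.13 (SE 0.36, 0.112) for Eif2ak2, -0.53 (SE 0.34, 0.470) for Trim25, -0.39 (SE 0.46, 0.745) for Tlr3, 0.23 (SE 0.70, 0.919) for Dhx58 and 0.30 (SE 0.19, 0.462) for Mavs. At an unadjusted p of 0.05, 5 of the 9 were lower in MeVa2.1, against 8.02% of all genes, and Ddx58, Eif2ak2 and Adar did not overlap, against 11.4%. DESeq2 called 4 (Ddx58, Adar, Eif2ak2 and Zbp1), against 8.63% of all genes. In edgeR 2 of the 9 passed when replicate 3 of MeVa2.2 was left out (Ddx58 and Adar, adjusted p 0.00837 and 0.0203) or replicate 3 of MeVa2.2.dOVA (Ddx58 and Eif2ak2, 0.0444 and 0.0322). The 5 melanocyte markers tested had a median log2 fold change of -2.91 here, with none passing edgeR's threshold, 3 with an unadjusted p under 0.05 and 3 passing in the blocked fit. The 7 listed summed to 14.7 to 26.6 CPM in MeVa2.1 and 10.5 to 58.3 CPM in MeVa2.2, and their part in the result was not tested.

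Whether the dOVA difference itself differed between the origins was tested as the change of MeVa2.1.dOVA over MeVa2.1 minus that of MeVa2.2.dOVA over MeVa2.2. None of the 9 passed in edgeR or in DESeq2, where 0.0858% of all genes passed in edgeR and 1.94% in DESeq2, and 5 of the 9 had an unadjusted p under 0.05 in the lower direction, against 3.90% of all genes. The largest differences were -3.09 (SE 1.69, edgeR adjusted p = 0.705) for Zbp1, -2.80 (SE 1.003, 0.411) for Dhx58 and -2.20 (SE 0.65, 0.286) for Tlr3. Ddx58 stood at -1.89 (SE 0.67, 0.409), Eif2ak2 at -1.31 (SE 0.50, 0.470), Ifih1 at -1.19 (SE 0.99, 0.878), Trim25 at -1.12 (SE 0.48, 0.547), Adar at -0.58 (SE 0.39, 0.804) and Mavs at 0.15 (SE 0.27, 0.971). The call of Ddx58 between the MeVa2.2 lines and its absence between the MeVa2.1 lines are therefore not shown to differ.

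**Figure D2:**
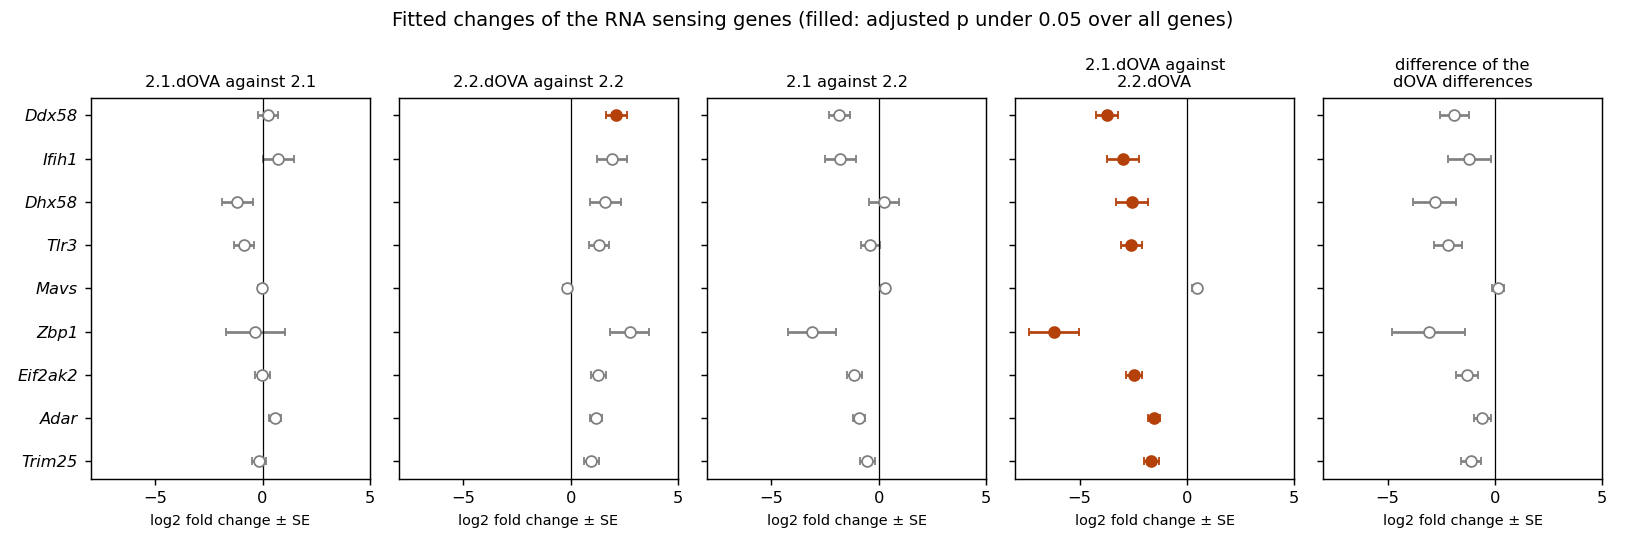
Log2 fold change with SE of the 9 genes in the 5 comparisons, from the edgeR fit over 12 libraries; filled points have an adjusted p under 0.05 over all genes and open points do not. In MeVa2.1.dOVA against MeVa2.2.dOVA 8 genes are filled left of 0, Ddx58 is filled right of 0 in MeVa2.2.dOVA against MeVa2.2, and Mavs has no value above 0.45 in size.

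Libraries of 1 line differed widely in the sensors. The highest library exceeded the lowest by a median of 2.07-fold in MeVa2.1.dOVA, 1.42-fold in MeVa2.1, 1.85-fold in MeVa2.2.dOVA and 2.46-fold in MeVa2.2, over the 8 genes other than Zbp1. All 9 genes were highest in replicate 3 within MeVa2.2.dOVA. Within MeVa2.2, 7 were highest in replicate 1 and 6 were lowest in replicate 3. An 18-gene list of classical interferon-stimulated genes such as Isg15 and Usp18, which shares no gene with the 9, ran alongside. Its mean log2 CPM was 1.37, 0.84 and 0.38 in replicates 1 to 3 of MeVa2.1.dOVA and 1.08, 0.80 and 0.33 in those of MeVa2.1. It was 5.06, 4.48 and 6.33 in MeVa2.2.dOVA and 4.27, 2.47 and 1.16 in MeVa2.2. In MeVa2.2 this score was therefore highest in replicate 1 and lowest in replicate 3, where most of the sensors were too. The 7 melanocyte markers summed to 58.3, 10.5 and 21.1 CPM in replicates 1 to 3 of MeVa2.2, and their part in the spread was not tested. Of the 18, 15 were lower in MeVa2.1.dOVA than in MeVa2.2.dOVA (median log2 fold change -4.42), against 4.81% of all genes. Oas1a of this list passed the filter only through MeVa2.2.dOVA. It had 654 reads there and 0, 1 and 4 in MeVa2.1.dOVA, MeVa2.1 and MeVa2.2. In MeVa2.1, 4 of the 18 were lower than in MeVa2.2 (-2.10), where 4.48% of all genes passed in either direction. In MeVa2.2.dOVA over MeVa2.2, 1 passed as higher (2.16), against 0.422% of all genes. All 18 were positive there, and 14 were higher at an unadjusted p of 0.05, against 6.70% of all genes. DESeq2 called 8 of the 18 in each of these last comparisons, against 8.63% and 6.96% of all genes. None of the 18 passed edgeR's threshold in MeVa2.1.dOVA against MeVa2.1 (-0.10), where no member had an unadjusted p under 0.05 and DESeq2 called none.

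For each of the 9, the genes with the closest log2 CPM over the 12 libraries were looked up. Helz2 followed Ddx58 (Pearson's r 0.988) and Rnf213 followed Adar (0.975). Oas1b followed Eif2ak2 (0.985), and Trim34a followed Zbp1 (0.992). Uba7, which encodes the activating enzyme for ISG15, stood first for both Tlr3 (0.976) and Dhx58 (0.932), Oasl2 for Ifih1 (0.967) and Igtp for Trim25 (0.968). For Mavs the closest gene was Sh2d4a (0.963). These values describe 12 libraries that share 4 lines, and carry no test.

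Among the 8 genes other than Mavs the pairwise r over the 12 libraries ran from 0.389 to 0.965, with a median of 0.884 over 28 pairs. Once each line's mean was subtracted, the median was 0.573 and the range -0.275 to 0.946. Ddx58 and Trim25 remained close (0.946), as did Dhx58 and Tlr3 (0.852), while Tlr3 and Adar did not (-0.275). The r of Mavs with the other 8 over all libraries was negative, with a median of -0.730. It ran from -0.797 with Trim25 to -0.375 with Tlr3 and only -0.102 with Dhx58. Within lines the median for Mavs was -0.266 and its range -0.570 with Adar to 0.643 with Tlr3. It was positive there with Dhx58 (0.570) and Eif2ak2 (0.141) too.

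**Figure D3:**
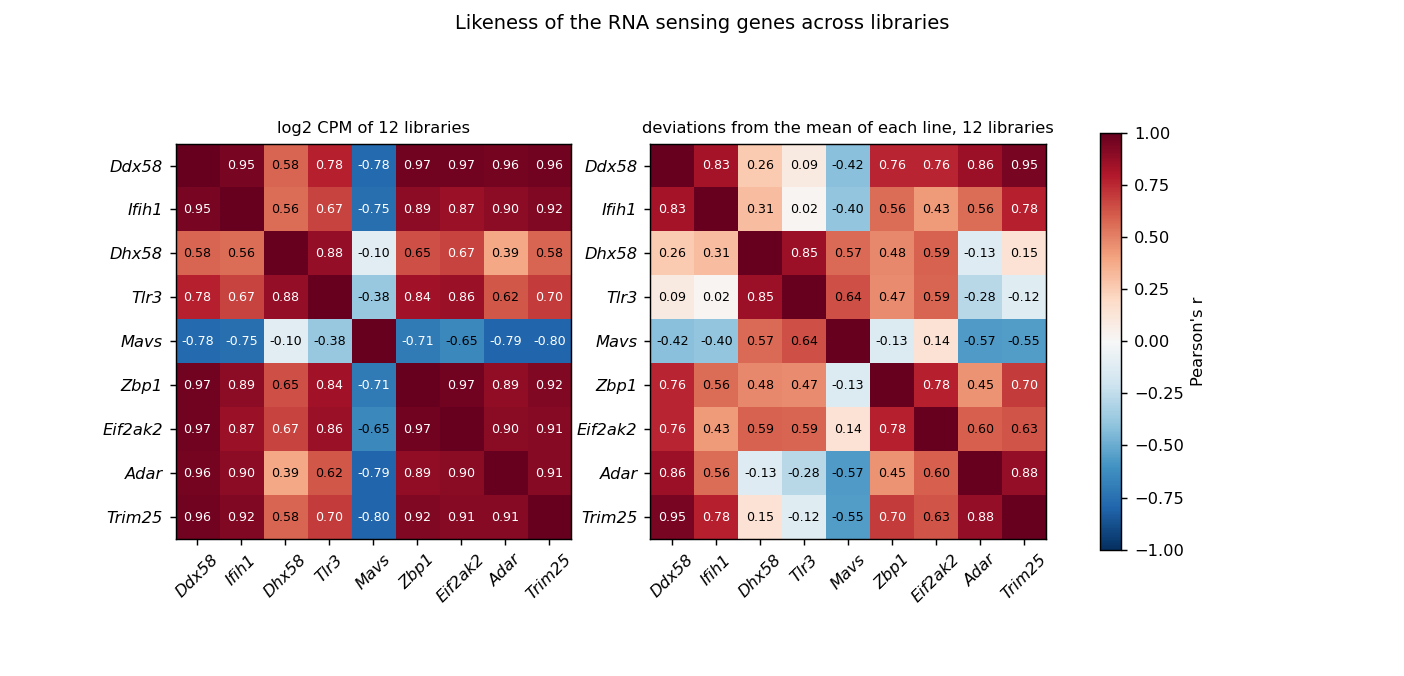
Pearson's r between each pair of the 9 genes over 12 libraries, on log2 CPM (left) and on deviations from the mean of each line (right), coloured from -1 in blue to 1 in red. Mavs stands apart on the left. On the right the r of Dhx58 with Tlr3 is 0.852, and both also have a positive r with Mavs and with Eif2ak2.

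Neighbouring parts of the RNA sensing pathway were described from lists of genes that act beside the 9. Signalling from the receptors to the interferon promoters, with kinases such as Tbk1 and the transcription factors Irf3 and Irf7, had 2 of 17 genes lower in MeVa2.1.dOVA than in MeVa2.2.dOVA and none higher, with a median log2 fold change of -0.21, where 4.81% of all genes were lower. In the blocked fit 4 of these 17 passed, a share near the 22.0% of all genes. Irf7, the interferon-induced factor that amplifies the response, was at 0.494, 0.574 and 0.317 CPM in MeVa2.1.dOVA and at 29.3, 23.8 and 152 CPM in MeVa2.2.dOVA. The 3 libraries of each line were thus far apart from those of the other (log2 fold change -7.17, SE 1.03, edgeR adjusted p = 0.00126). Azi2, an adaptor of the kinase Tbk1, was lower too (-0.81, SE 0.18, 0.0151). Irf3, the factor that is present before infection, did not pass (0.50, SE 0.26, 0.250). In MeVa2.1 against MeVa2.2, Irf7 was the 1 gene of this list that passed (-3.68, SE 0.89, 0.0385).

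Cofactors and regulators of the helicases went both ways. Of 17 tested, 3 were higher and 1 lower in MeVa2.1.dOVA than in MeVa2.2.dOVA (median log2 fold change -0.18), where 11.3% of all genes passed in either direction. In the blocked fit 6 passed, against 22.0% of all genes. Higher were Rnf125, a ubiquitin ligase that marks RIG-I for degradation (4.65, SE 0.71, edgeR adjusted p = 0.00183), Nlrx1, a mitochondrial regulator of MAVS signalling (2.22, SE 0.44, 0.00789), and Zcchc3, an RNA-binding cofactor of the helicases (2.31, SE 0.63, 0.0367). Ddx60, an interferon-induced helicase, was lower (-4.71, SE 1.10, 0.0185). Rnf125 was scarce throughout, at 1.11, 0.632 and 1.61 CPM in MeVa2.1.dOVA and at 0, 0.0533 and 0.0594 CPM in MeVa2.2.dOVA. Between the MeVa2.2 lines, Zcchc3 and Nlrx1 fell in MeVa2.2.dOVA (-4.20, SE 0.64, 0.0121, and -2.05, SE 0.44, 0.0421). Between the MeVa2.1 lines neither passed (-1.70, SE 0.55, 0.272, and -0.77, SE 0.41, 0.528). The Zcchc3 libraries of MeVa2.1.dOVA nevertheless all lay below those of MeVa2.1. Zcchc3 was at 0.324, 0.267 and 0.0594 CPM in MeVa2.2.dOVA and at 3.26, 3.53 and 4.53 CPM in MeVa2.2, without overlap. Rnf125 was higher in MeVa2.1 than in MeVa2.2 (2.41, SE 0.56, 0.0331).

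Of 20 genes tested that bind or process double-stranded RNA, Samhd1, a nucleotide hydrolase, was lower (-1.44, SE 0.33, edgeR adjusted p = 0.0178) and Supv3l1, a mitochondrial RNA helicase, was higher (0.68, SE 0.20, 0.0498) in MeVa2.1.dOVA than in MeVa2.2.dOVA, with a median of -0.08 over the list. The share called was near the 11.3% of all genes, as were the 4 of 20 passing in the blocked fit to its 22.0%. Pnpt1, which degrades mitochondrial RNA, was lower in MeVa2.1 than in MeVa2.2 (-0.66, SE 0.16, 0.0453). Among 8 tested genes of cytosolic DNA sensing (median -1.12), 3 were lower in MeVa2.1.dOVA and none higher, against 4.81% of all genes lower, and 5 passed with the block, against 22.0%. They were Tmem173, which encodes STING (-1.73, SE 0.46, 0.0336), and the interferon-induced Ifi204 (-2.61, SE 0.39, 0.00151) and Mndal (-2.81, SE 0.46, 0.00259). Cgas, the DNA sensor upstream of STING, did not pass (-0.52, SE 0.23, 0.168). Among the 4 tested genes of endosomal receptor signalling, Myd88, an adaptor that Tlr3 does not use, was lower (-1.37, SE 0.27, 0.00767), and 2 of the 4 passed with the block, against 22.0% of all genes. Unc93b1 of the same list went the other way and was scarce. It was at 1.05, 0.115 and 0.489 CPM in MeVa2.1.dOVA and at 0, 0 and 0.119 CPM in MeVa2.2.dOVA.

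Between the dOVA lines, no partner of ZBP1 in cell death (5 tested) and no gene around eIF2alpha phosphorylation (8 tested) passed edgeR's threshold. Of all genes, 11.3% passed it, and 17.4% were called by DESeq2. DESeq2 called none in either list, and at an unadjusted p of 0.05 there were 0 and 1, with no share of all genes given at that level. These counts do not set lists this short apart from all genes. Ripk3, the kinase that ZBP1 engages, fell in MeVa2.2.dOVA against MeVa2.2 (-4.68, SE 0.86, edgeR adjusted p = 0.0240). It was at 0.162, 0.0533 and 0.148 CPM in MeVa2.2.dOVA and at 4.97, 1.47 and 3.27 CPM in MeVa2.2. Between the dOVA lines it did not pass (0.22, SE 0.98, 0.910). Ripk3 was at 0.309, 0.0574 and 0.0863 CPM in MeVa2.1.dOVA, below the 2.05, 0.312 and 0.533 CPM of MeVa2.1 without overlap. In MeVa2.1.dOVA against MeVa2.1 no gene of these 7 neighbouring lists passed edgeR's threshold, 13 of 79 had an unadjusted p under 0.05, against 11.2% of all genes. DESeq2 called 4 of the 79, against 2.82%, and the blocked fit 2, against 2.60%.

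The interferon genes themselves were at or near 0 counts, and none of the 10 listed passed the filter. Ifnb1 and Ifne are named after their values were seen. Ifnb1 had 0 reads in MeVa2.1.dOVA and 0 in MeVa2.1. It had 13 reads in MeVa2.2.dOVA, at 0.485, 0.107 and 0.0594 CPM, and 5 in MeVa2.2, all in replicate 1. Ifne had 5 reads in MeVa2.2.dOVA and 0 in each of the other 3 lines, and the remaining 8 had 0 reads in all 12 libraries. With so few reads these genes were not tested.

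**Figure D4:**
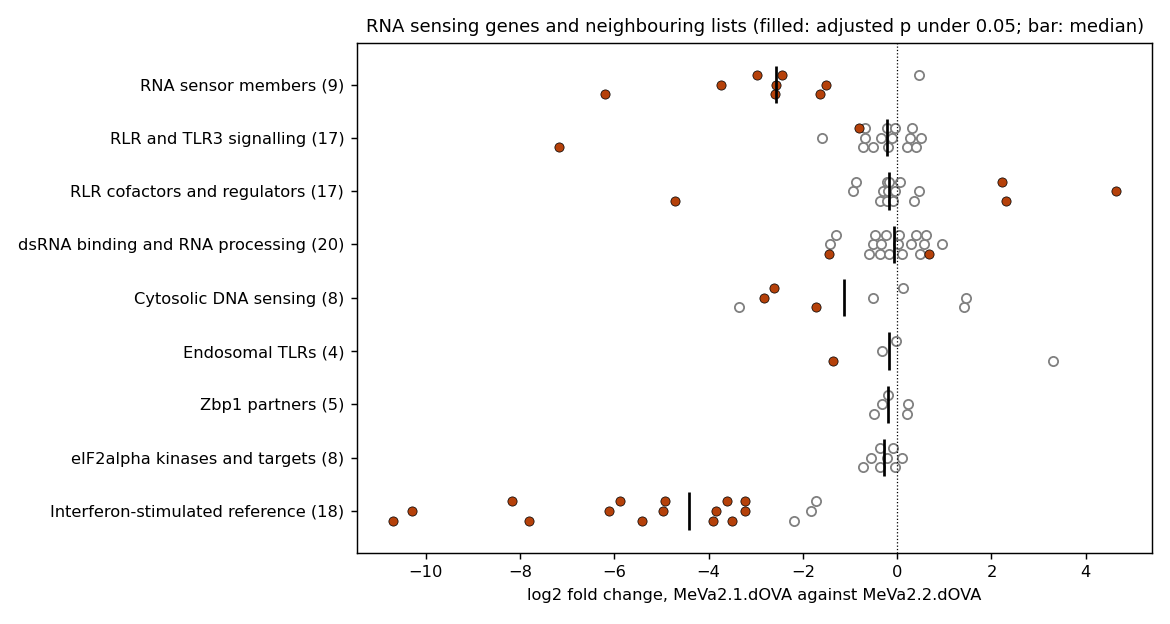
Log2 fold changes of MeVa2.1.dOVA against MeVa2.2.dOVA for the 9 RNA sensing genes and 8 neighbouring lists, with the number of tested genes in brackets; filled points have an edgeR adjusted p under 0.05 and black bars mark medians. The bar of the 9 genes stands at -2.57 and that of the interferon-stimulated list at -4.42, while those of receptor signalling, helicase cofactors and RNA processing lie close to 0.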

How the data were processed

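RNA from 12 libraries of 4 lines was sequenced from stranded poly(A) libraries, per the labels' protocols. The deposited files hold raw counts of reads per gene made by the authors. The tools named, per the submitters' processing notes, are HTSeq 0.10.0, STAR 2.6.0c and DESeq2 1.30.1, with the build GRCm38. The annotation and strand setting of the counting are not given in the sources used here. The 5 tally lines per file (35.8% to 40.0% of reads, most of low mapping quality) were left out of library sizes. Reads that map to near-identical copies are missing from the counts. Symbols were found for 55144 of 55471 identifiers. Positions and exon lengths come from GENCODE M21.

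The fits used edgeR 4.0.16, limma 3.58.1 and R 4.3.3. After filterByExpr (minimum count 10) and TMM scaling (factors 0.953 to 1.068), a quasi-likelihood model with 1 mean per line was fitted to 13985 genes in all 12 libraries (8 residual degrees of freedom, common dispersion 0.121), with Benjamini-Hochberg adjustment over all genes tested and a threshold of 0.05. The SE is the one implied by the F statistic. CPM levels use total gene counts, and log2 CPM a prior count of 2. The code was tested on simulated data.

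Members and lists were chosen with earlier results of these data known. All 9 genes are named, and of other lists those past the threshold in any comparison, up to 4 more with the smallest unadjusted p in the comparison described, and the 3 genes most like each member. Irf3, Tbk1, Cgas and the genes naming a list or marking a cell type were named as background.

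The main fit used no pairing in any comparison. Same-numbered libraries were called pairs where deviations from the line means correlated above 0.1 in all 3. This held for MeVa2.1.dOVA with MeVa2.1 (0.503, 0.488 and 0.534), MeVa2.1 with MeVa2.2 (0.429, 0.405 and 0.328) and, narrowly, MeVa2.1.dOVA with MeVa2.2.dOVA (0.105, 0.516 and 0.416), and not for MeVa2.2.dOVA with MeVa2.2 (0.0815, 0.640 and 0.521). No label states a pairing. Replicates of a line differed beyond counting noise (chi-square per degree of freedom at least 27.1). Alternatives were RLE or no composition scaling, DESeq2 1.42.0, no filter, the pair of lines alone, the replicate block, and leaving out each library or the 2 placed apart.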

Additional observations from a re-analysis of the deposited data

How the results depend on the processing

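Between MeVa2.1.dOVA and MeVa2.2.dOVA, 8 of the 9 genes passed, with 6 to 8 under settings with 1 library left out, and 6 without the 2 libraries placed apart. In MeVa2.2.dOVA against MeVa2.2 the count was 1, and 0 with total counts or with the pair of lines alone, 4 with DESeq2, 5 without the filter and 0 to 1 with 1 library left out. Where 1 gene passed with 1 library left out, or without the 2 placed apart, it was Adar and not Ddx58. The replicate block gave 3 (Ddx58, Ifih1 and Adar), where the rule for pairs was missed by replicate 1 alone (r 0.0815 against a limit of 0.1). In MeVa2.1 against MeVa2.2 the count was 0, and 4 with DESeq2, 5 without the filter, 2 with the replicate block and 0 to 2 with 1 library left out. The other comparisons stayed at 0.

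Over all genes, MeVa2.1.dOVA against MeVa2.1 had 68 calls, and 394 with DESeq2, 272 without the filter, 25 with the lines alone, 364 with the replicate block, 2 without both libraries placed apart and 1 to 83 with 1 left out. MeVa2.2.dOVA against MeVa2.2 had 278, and in the same order 974, 729, 5, 1084, 693 and 20 to 447. MeVa2.1 against MeVa2.2 had 627, and 1207 with DESeq2, 969 without the filter, 397 with the lines alone, 1330 with the block and 279 to 775. The dOVA lines had 1574, and 2428 with DESeq2, 1025 with the lines alone, 3079 with the block and 796 to 2578. The difference of the differences had 12, and 272 with DESeq2, 161 without the filter, 118 with the block and 0 to 13.

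Of the single genes' values under the alternatives, 771 kept direction and side of the threshold, 31 lost it, 28 gained it and 14 changed sign, none of them past it. With 1 library left out, the sign changed in MeVa2.1.dOVA against MeVa2.1 for Ifih1 (-0.055 to 1.19), Mavs (-0.13 to 0.12), Zbp1 (-0.83 to 1.08), Eif2ak2 (-0.14 to 0.12) and Trim25 (-0.44 to 0.033), in MeVa2.1 against MeVa2.2 for Dhx58 (-0.13 to 0.88) and Tlr3 (-0.69 to 0.014), and in the difference of the differences for Mavs (-0.0053 to 0.29). Without both libraries placed apart, Mavs (0.12) and Eif2ak2 (0.024) in MeVa2.1.dOVA against MeVa2.1 and Dhx58 (-0.13) in MeVa2.1 against MeVa2.2 changed sign. The causes were not tested. Depth limits Zbp1 most, with 5 reads in MeVa2.1.dOVA.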
